A study of Mus musculus with 4 samples.

Results

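The genes described here are 8 miRNA genes with known links to the kidney: the 6 genes of the miR-30 family, Mir30a, Mir30b, Mir30c-1, Mir30c-2, Mir30d and Mir30e, and the paralogs Mir204 and Mir211. They were chosen by name, and all 8 had a row among the 643 miRNA genes and 2976 genes of the deposited table. The study sequenced small RNA from Tbx18-lineage stroma beside the wolffian duct of CD1 mouse embryos at E10.5. The genotype was Tbx18-Cre;CAG-tdTomato, so red fluorescence marked any cell in which the Tbx18 promoter had driven Cre, and its descendants, and they were collected by flow cytometry. All 4 libraries belong to 1 group with this genotype, labelled wildtype, so there was no control group and every comparison below is between genes within a library. Separate embryos, litters or pools are not named for the libraries, so spreads and p-values speak only for these libraries and may be technical.

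The miR-30 family is a broadly expressed set of miRNAs whose members share a seed, the stretch near the 5′ end through which a miRNA pairs with its target mRNAs. In Xenopus the family is needed for formation of the pronephros, the embryonic kidney, where it acts on the transcription factor gene Lhx1, and in mouse it is known from podocytes. miR-204 and miR-211 are a pair with a common seed that sit in introns of the cation channel genes Trpm3 and Trpm1. miR-204 is known from kidney tubule epithelium, lens and retinal pigment epithelium, and miR-211 from pigment cells.

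Mature sequences from RefSeq on GRCm38.p6 were matched for 6 of the 8 genes, and not for Mir30b and Mir30d. Their 5p arms are shown because they show which genes belong together and where reads of different genes can be confused. Each is written 5′ to 3′, with the seed, bases 2 to 8, in capitals.
miR-30a-5p: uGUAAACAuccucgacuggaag
miR-30e-5p: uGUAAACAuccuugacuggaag
miR-30c-5p, from Mir30c-1 and Mir30c-2: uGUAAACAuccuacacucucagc
miR-204-5p: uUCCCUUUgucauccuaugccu
miR-211-5p: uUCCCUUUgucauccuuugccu

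Counted from the 5′ end, miR-30a-5p and miR-30e-5p differ by 1 base in 22, C13U. From miR-30a-5p to miR-30c-5p there are 5 changes in the first 22 bases, C13A, G14C, G18C, G19U and A20C, all beyond the seed. miR-211-5p and miR-204-5p differ by 1 base in 22, U17A. Among 1738 mature sequences searched, 1 gene with a row that is not of this set also carries the seed GUAAACA in its 5p arm. It is Mir384 on chromosome X, whose 5p arm reads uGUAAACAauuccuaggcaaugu, and its level was 2.71 ± 2.06 TPM (SD, n = 4; TPM is reads per unit of gene length, brought to a fixed total per library). Mir384 made up 0.246% of the summed level of the 6 miR-30 genes and itself. The same search returned Mir7670 for the seed UCCCUUU, in its 3p arm, and it had no row among the matched miRNA genes.

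The 3p arms fall into more than 1 seed. They are shown because they separate Mir30a and Mir30e from the miR-30c copies, which the 5p seed does not.
miR-30a-3p: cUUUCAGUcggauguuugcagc
miR-30e-3p: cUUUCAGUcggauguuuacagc
miR-30c-1-3p: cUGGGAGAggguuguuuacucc
miR-30c-2-3p: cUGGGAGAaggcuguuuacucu
The deposited rows are precursor genes, so reads of the 5p and 3p arms of a gene are counted together.

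The miR-30 genes lie in pairs at 3 places in the genome, with coordinates on GRCm38. Mir30d (gene ID 387228; chr15:68341208-68341289) and Mir30b (gene ID 387226; chr15:68337415-68337510) lie on the minus strand with 3697 bases between the hairpins. In GENCODE vM21 Mir30d overlaps an exon of the lincRNA Gm20732, and Mir30b overlaps the first 16 bases of the transcript Gm26621. Mir30e (gene ID 723836; chr4:120772606-120772697) and Mir30c-1 (gene ID 387227; chr4:120769534-120769622) lie on the minus strand, 2983 bases apart, in introns of Nfyc, which encodes a subunit of the transcription factor NF-Y. Mir30a (gene ID 387225; chr1:23272269-23272339) and Mir30c-2 (gene ID 723964; chr1:23291701-23291784) lie on the plus strand 19361 bases apart. Mir30a overlaps no other annotated gene, and Mir30c-2 overlaps an exon of the lincRNA Gm27028. Mir204 (gene ID 387200; chr19:22750605-22750672) lies in an intron of Trpm3, and Mir211 (gene ID 387207; chr7:64205806-64205911) in an intron of Trpm1, both on the plus strand. Host transcripts were not analysed here. On the opposite strand the annotation places Mir30f at the same coordinates as Mir30e. Use of strand in the counting was not given in the sources used here, so reads of these 2 genes cannot be told apart.

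The reads of all miRNA genes, worked out from the steps of the TPM values, numbered 146255 in library 4 and between 883201 and 1087240 in libraries 1 to 3. All deposited rows together summed to 49401, 72205, 71089 and 23340 TPM in libraries 1 to 4, well under the 1000000 that TPM are usually brought to. The total used was not given in the sources used here. If it was 1000000, it takes in more than the deposited rows, and the rest was not analysed here. The summed TPM of the miRNA genes was lowest in library 4 at 16399 and highest in library 2 at 65478, so part of every difference in TPM between libraries is shared by all miRNA genes. Shares of the miRNA total, which do not carry it, are therefore given beside the levels. Of the 6 stroma and mesenchyme markers, 4 were detected, with sums of 331 to 2373 TPM, while Mir199a-2 and Mir214 were listed at 0 in all libraries. The labelled marker Tbx18 is a coding gene and was not analysed here. Library 3 stood apart in its neural markers, which summed to 3082 TPM there, against 37.6 to 351 TPM in the other libraries. Of the 9 neural markers only Mir9-3 was detected, and it had 2861 TPM in library 3. The other neural markers above 0 were also highest in library 3, with Mir219a-2 at 182 TPM there and 0.752 to 16.5 TPM elsewhere.

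The miR-30 family was present in every library, with Mir30d its most abundant gene and Mir30b by far its least. Detected here means at least 1 TPM in every library. All 6 miR-30 genes and Mir204 were detected and Mir211 was not, which makes 7 of the 8 genes, while 33.1% of all 643 miRNA genes were detected. In libraries 1 to 4 the family summed to 782, 1495, 1842 and 286 TPM. As a share of the miRNA total it took 1.84%, 2.28%, 2.98% and 1.75%, a mean of 2.21% ± 0.565 (SD, n = 4). The share was highest in library 3 and within a narrower range in the other libraries.

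**Figure D1:**
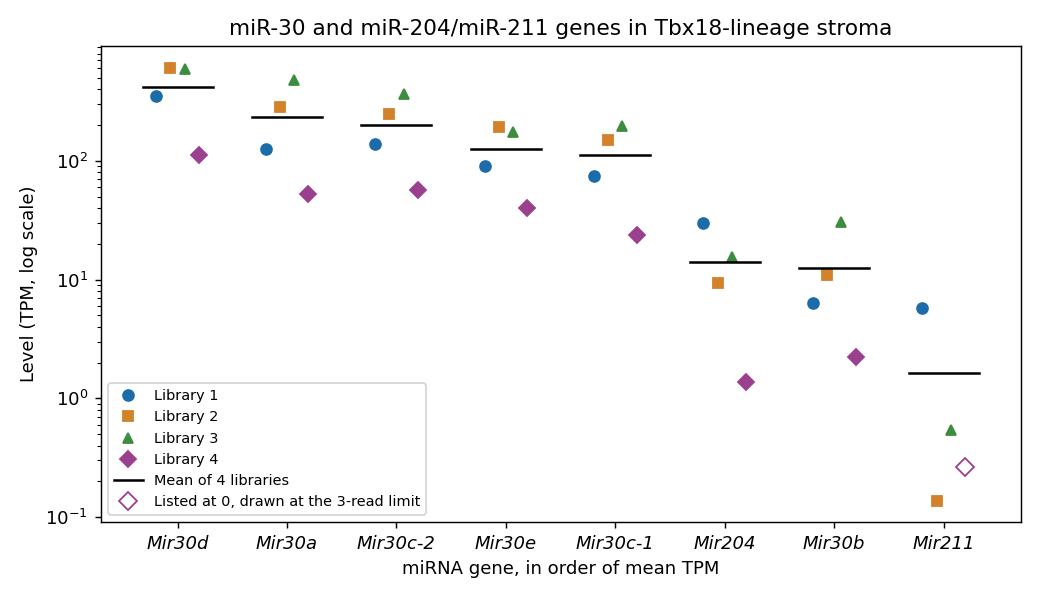
Level of each gene in TPM on a log axis, with 1 point per library and a bar at the mean of 4 libraries. Mir30d is highest in every library, library 4 has the lowest listed value for every gene, and Mir211, listed at 0 there, is drawn as an open symbol at the level of 3 reads.

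Mir30d had 348, 609, 594 and 111 TPM in libraries 1 to 4, a mean of 416 ± 236 TPM (SD, n = 4). It was the highest of the 8 genes in 4 of 4 libraries and ranked between 20th and 36th among miRNA genes. Its share of the miRNA total was 0.819%, 0.930%, 0.963% and 0.679%, so most of its spread in TPM was shared by the whole miRNA pool. Mir30b, its neighbour, had 6.31, 10.9, 30.6 and 2.22 TPM, a mean of 12.5 ± 12.6 TPM (SD, n = 4). Those levels rest on 155, 215, 564 and 23 reads. Library 3 alone held most of the Mir30b reads, and without it the mean was 6.48 TPM. As a share of the miRNA total, Mir30b was at 0.0149%, 0.0166%, 0.0497% and 0.0136%.

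Mir30a had 124, 284, 481 and 52.4 TPM in libraries 1 to 4, a mean of 235 ± 190 TPM (SD, n = 4), or 154 TPM without library 3. Its partner Mir30c-2 had 138, 249, 362 and 56.2 TPM, a mean of 201 ± 133 TPM (SD, n = 4). The 2 genes exchanged places between libraries, with Mir30a above in libraries 2 and 3 and below in libraries 1 and 4. As shares of the miRNA total, Mir30a took 0.293%, 0.434%, 0.779% and 0.319%, and Mir30c-2 took 0.325%, 0.380%, 0.587% and 0.343%. Both shares were highest in library 3.

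Mir30e had 90.6, 193, 176 and 40.2 TPM in libraries 1 to 4, a mean of 125 ± 72.3 TPM (SD, n = 4). Mir30c-1, in the same host gene, had 75.0, 149, 198 and 23.9 TPM, a mean of 111 ± 77.1 TPM (SD, n = 4). Mir30e was the higher of the pair in 3 of 4 libraries and the lower in library 3. Mir30e had the steadiest share of the miRNA total of the 8 genes, at 0.213%, 0.295%, 0.286% and 0.245%, and Mir30c-1 took 0.176%, 0.228%, 0.320% and 0.146%.

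In the order of mean TPM the genes ran Mir30d, Mir30a, Mir30c-2, Mir30e, Mir30c-1, Mir204, Mir30b, Mir211. Neighbours were set against each other by the log2 ratio of TPM + 1 in each library, with no test because the data chose the order. Mir30d lay above Mir30a by 0.99 ± 0.49 and Mir30c-2 above Mir30e by 0.62 ± 0.29, each in 4 of 4 libraries. Mir30c-1 lay above Mir204 by 3.04 ± 1.18 (SD, n = 4), also in 4 of 4. For 3 pairs of neighbours the difference was within the spread. Mir30a over Mir30c-2 was 0.09 ± 0.26, Mir30e over Mir30c-1 was 0.30 ± 0.37 and Mir204 over Mir30b was 0.12 ± 1.35, with Mir204 higher in library 1 only. Mir30b over Mir211 was 2.39 ± 1.88 (SD, n = 4) and above 0 in 4 of 4 libraries, but only 0.11 in library 1, where Mir211 had 157 reads and Mir30b 155.

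**Figure D2:**
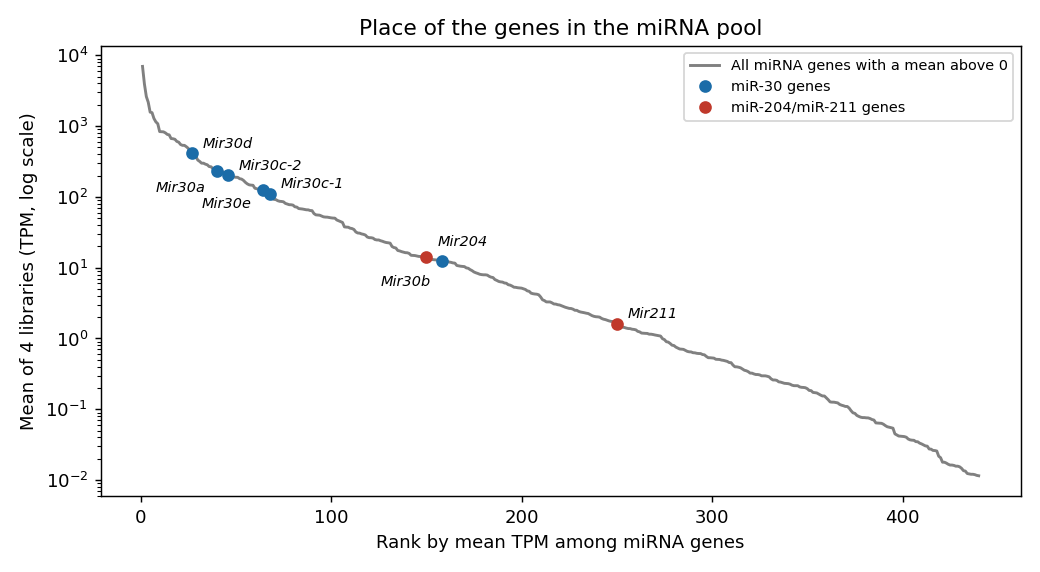
Mean TPM of the 440 miRNA genes with a mean above 0 on a log axis, against their rank, with the 8 genes marked. Of the miR-30 genes, 5 lie between ranks 27 and 68, while Mir204 and Mir30b lie at 150 and 158 and Mir211 at 250.

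The ranks among miRNA genes place these levels in the pool. Directly above and below Mir30d by mean TPM were Mir151 at 428 ± 241 and Mir7-2 at 398 ± 258 TPM (SD, n = 4). Mir30a stood between Mir128-1 at 239 and Mir20a at 230 TPM, and Mir30c-2 between Mir93 at 208 and Mir181a-1 at 199.7 TPM. Mir30e stood between Mir92b at 127 and Mir140 at 125 TPM, and Mir30c-1 between Mir328 at 117 and Mir298 at 94.8 TPM. Mir204 stood between Mir130a at 14.2 and Mir450b at 13.8 TPM. The epithelial Mir200c at 12.4 TPM was directly below Mir30b, with Mir301 at 12.7 TPM above it. Mir211 stood between Mir326 at 1.62 and Mir3095 at 1.50 TPM.

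In the listed values the 3 loci contributed unequally to the family, and the pair within Nfyc contributed least. This order depends on how miR-30c reads were divided between Mir30c-1 and Mir30c-2, which is uncertain, as described below. Of the miR-30 sum in TPM, the Mir30b/Mir30d locus supplied 45.3%, 41.4%, 33.9% and 39.7% in libraries 1 to 4, a mean of 40.1% ± 4.72 (SD, n = 4). The Mir30a/Mir30c-2 locus supplied 33.5%, 35.6%, 45.8% and 37.9%, a mean of 38.2% ± 5.34 (SD, n = 4). The Mir30c-1/Mir30e locus supplied 21.2%, 22.9%, 20.3% and 22.4%, a mean of 21.7% ± 1.19 (SD, n = 4). Its range did not overlap those of the other loci, while theirs overlapped each other.

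**Figure D3:**
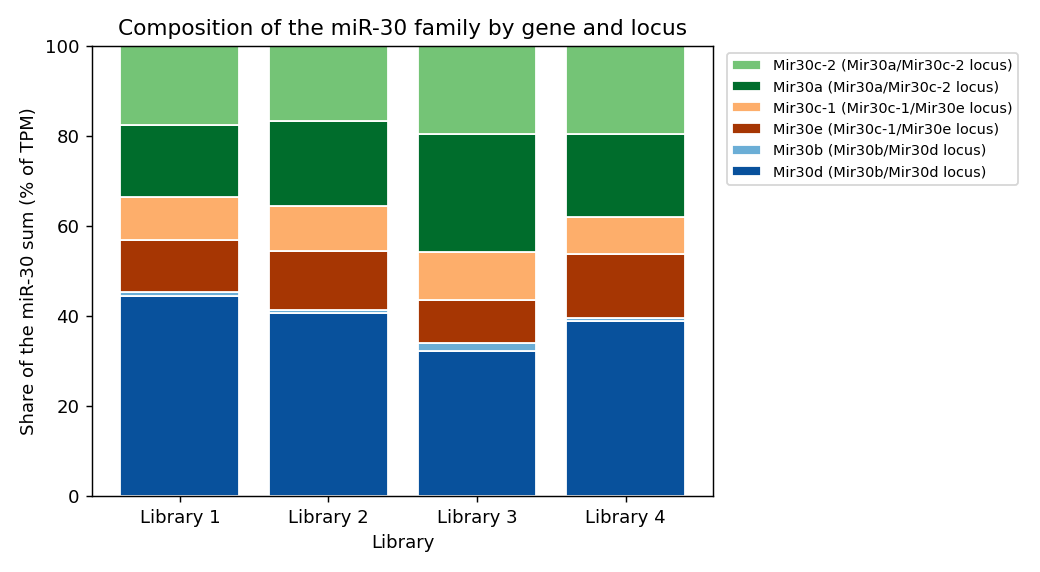
Share of each miR-30 gene in the family's summed TPM, stacked to 100% for each library and coloured by locus. Mir30d fills 32.3% to 44.5% of the bar, Mir30b 0.728% to 1.66%, and in library 3 the Mir30a/Mir30c-2 locus takes 45.8%, above the Mir30b/Mir30d locus at 33.9%.

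By gene, Mir30d made up 39.1% ± 5.11 of the miR-30 sum, Mir30a 19.8% ± 4.38, Mir30c-2 18.4% ± 1.51, Mir30e 12.0% ± 1.93, Mir30c-1 9.66% ± 0.999 and Mir30b 0.994% ± 0.448 (SD, n = 4). Mir30d was the largest share in every library. It was lowest in library 3, at 32.3%, where Mir30a was highest, at 26.1%. The shares of the miR-30c copies varied least, with a coefficient of variation of 8.20% for Mir30c-2 and 10.3% for Mir30c-1. In library 3 the neural markers took 4.99% of the miRNA total, against 0.0575% to 0.825% elsewhere. Of these 9 markers Mir124a-1 was listed at 0, 8 were above 0 and 1 was detected, Mir9-3, the most abundant at 2861 TPM in library 3. All 8 were highest in library 3. Epithelial markers, with 5 of 6 detected and none at 0, summed to 157 TPM in library 3, against 43.5 to 73.8 TPM in the other libraries. Their share of the miRNA total did not set library 3 apart, at 0.174%, 0.0707%, 0.255% and 0.265% in libraries 1 to 4. Of 3 erythroid markers none was detected, 2 were above 0 and Mir486 was at 0. They summed to 11.9 TPM in library 3, against 0.878 to 3.88 TPM elsewhere. As a share of the miRNA total they took 0.0192% in library 3, against 0.00134% to 0.00912% elsewhere. The part of these marked cell types in the library 3 values of Mir30a and Mir30b was not tested.

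Loci and genes were set against each other inside each library by log2 ratios of summed TPM + 1, 9 ratios in all. Each was tested over libraries by flipping signs, an exact permutation test, two-sided, with Benjamini-Hochberg adjustment over the 9. With 4 libraries this exact test cannot go below p = 0.125, so no ratio could pass 0.05. The Mir30b/Mir30d locus averaged 428 ± 245 TPM and the Mir30c-1/Mir30e locus 237 ± 147 TPM (SD, n = 4), a log2 ratio of 0.88 ± 0.15. It was above 0 in 4 of 4 libraries (exact permutation p = 0.125, adjusted p = 0.188). The Mir30c-1/Mir30e locus lay below the Mir30a/Mir30c-2 locus, which averaged 437 ± 323 TPM, with a log2 ratio of -0.80 ± 0.25 (SD, n = 4), and it was below in 4 of 4 libraries (exact permutation p = 0.125, adjusted p = 0.188). Between the Mir30b/Mir30d and the Mir30a/Mir30c-2 loci the log2 ratio was 0.07 ± 0.37 (exact permutation p = 0.625, adjusted p = 0.625), at 0.43, 0.22, -0.43 and 0.06 in libraries 1 to 4. That difference was smaller than the spread between libraries.

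**Figure D4:**
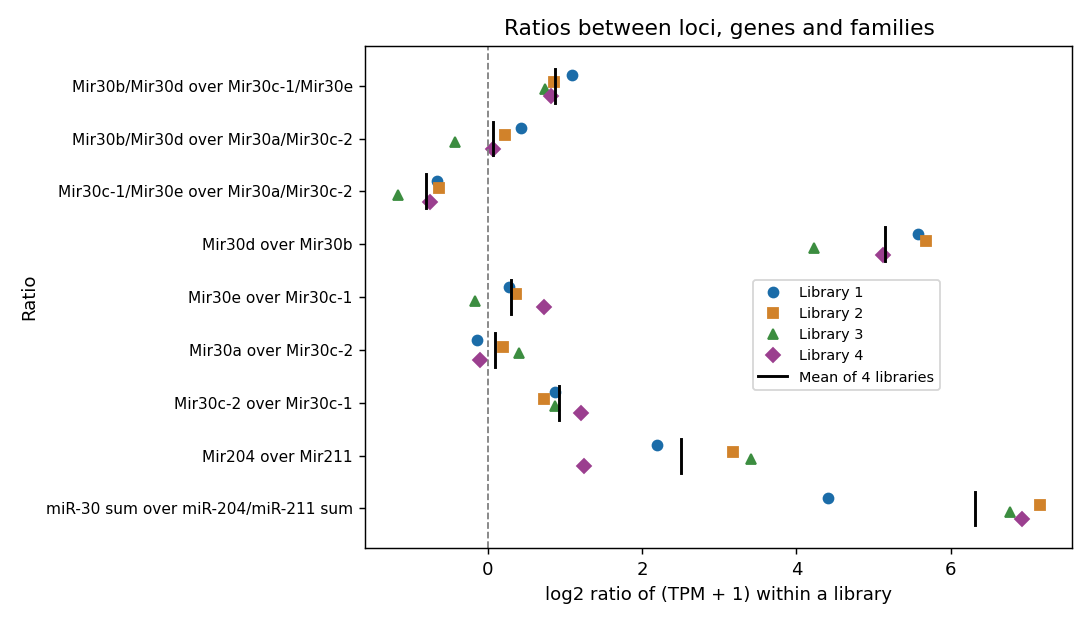
Log2 ratio of TPM + 1 within each library for the 9 ratios, with 1 point per library, a bar at the mean and a dashed line at equal levels. Mir30d over Mir30b lies between 4.23 and 5.68, and the ratios of the Mir30b/Mir30d to the Mir30a/Mir30c-2 locus and of Mir30a to Mir30c-2 lie on both sides of 0.

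Within the loci, genes of a pair were close in 2 cases and far apart in the other. Mir30d exceeded Mir30b by 5.58, 5.68, 4.23 and 5.12 log2 units in libraries 1 to 4, a mean of 5.15 ± 0.66 (SD, n = 4), which corresponds to 35.6-fold on the TPM + 1 scale (exact permutation p = 0.125, adjusted p = 0.188). The difference was smallest in library 3. Mir30e over Mir30c-1 was 0.30 ± 0.37 (SD, n = 4; exact permutation p = 0.25, adjusted p = 0.321), and Mir30a over Mir30c-2 was 0.09 ± 0.26 (SD, n = 4; exact permutation p = 0.625, adjusted p = 0.625). In recovered reads, without division by hairpin length, Mir30a over Mir30c-2 turned to -0.15, since the Mir30a hairpin has 71 nt and that of Mir30c-2 has 84. With the miR-30c reads split evenly between their 2 copies it was 0.44, above 0 in 4 of 4 libraries (exact permutation p = 0.125). The order of Mir30a and Mir30c-2 therefore depends on these choices.

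The miR-30c copies share the whole 5p arm, and their hairpins differ outside it. They are printed because reads of the 5p arm, in capitals, cannot be placed at either gene by sequence.
Mir30c-2: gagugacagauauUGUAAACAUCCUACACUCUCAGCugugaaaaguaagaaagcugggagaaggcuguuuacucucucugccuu
Mir30c-1: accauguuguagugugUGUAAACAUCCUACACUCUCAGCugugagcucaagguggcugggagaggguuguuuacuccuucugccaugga
In recovered reads Mir30c-2 had 2964, 4295, 5832 and 509 and Mir30c-1 had 1706, 2733, 3370 and 229 in libraries 1 to 4. The log2 ratio of Mir30c-2 over Mir30c-1 in TPM was 0.87, 0.73, 0.87 and 1.20, a mean of 0.92 ± 0.20 (SD, n = 4; exact permutation p = 0.125, adjusted p = 0.188). Treatment of reads that match both places was not given in the sources used here, so this split is uncertain. Summed over both copies, miR-30c took 27.2%, 26.6%, 30.4% and 28.0% of the miR-30 sum, a value that does not depend on the split between copies except through hairpin length. With the miR-30c reads divided evenly between the copies, the locus ratios kept their direction but those of the Mir30c-1/Mir30e locus were smaller. The Mir30b/Mir30d over Mir30c-1/Mir30e ratio was then 0.64, and Mir30c-1/Mir30e over Mir30a/Mir30c-2 was -0.41. The Mir30b/Mir30d over Mir30a/Mir30c-2 ratio was 0.23, and Mir30e over Mir30c-1 turned to -0.18. Splits other than an even division were not tried. Mir30a and Mir30e, which differ by 1 base in the 5p arm, could exchange reads in the same way where mismatches were allowed, and that was not tested. No sequences were matched for Mir30b and Mir30d, so whether their reads can be confused with those of other miR-30 genes was not assessed.

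Mir204 and Mir211 were low, and both were highest in library 1, unlike any miR-30 gene. The hairpins, with the 5p arm in capitals, show the seed match between these paralogs and the longer Mir211 precursor.
Mir204: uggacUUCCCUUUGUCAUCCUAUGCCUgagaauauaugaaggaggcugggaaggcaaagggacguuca
Mir211: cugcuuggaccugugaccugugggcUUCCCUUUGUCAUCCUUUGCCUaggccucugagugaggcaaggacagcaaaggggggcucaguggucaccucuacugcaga
Mir204 had 30.1, 9.30, 15.4 and 1.36 TPM in libraries 1 to 4, a mean of 14.0 ± 12.1 TPM (SD, n = 4), from 523, 130, 201 and 10 reads. Without library 1 its mean was 8.69 TPM. As a share of miRNA reads it took 0.0592% in library 1 (95% exact Clopper-Pearson interval 0.0543% to 0.0645%) and 0.0120% in library 2 (0.009990% to 0.0142%). It took 0.0205% in library 3 (0.0178% to 0.0236%) and 0.00684% in library 4 (0.00328% to 0.0126%). The library 1 interval lay above the other intervals, which cover counting error only.

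Mir211 had 5.79, 0.138, 0.541 and 0 TPM in libraries 1 to 4, from 157, 3, 11 and 0 reads. A count of 0 in library 4 allows a level of up to 0.263 TPM, taking 3 reads as the limit. Its level in library 2 was that of 3 reads. The mean of 1.62 ± 2.79 TPM (SD, n = 4) rested on library 1, and without it the mean was 0.226 TPM. At the level of single libraries, Mir211 in library 1 was thus above the counting limit by a wide margin and in libraries 2 and 4 at or under it. Mir204 and Mir211 differ by 1 base in the 5p arm and could exchange reads where mismatches were allowed. That was not tested, and the counting intervals do not cover it.

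**Figure D5:**
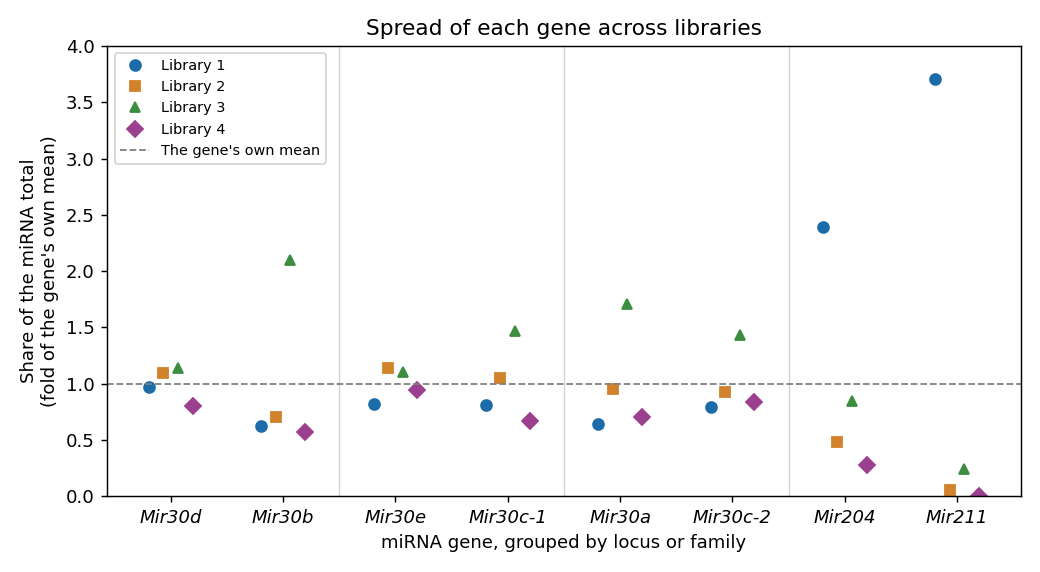
Share of the miRNA total of each gene in each library, as a fold of the gene's own mean over 4 libraries, with genes grouped by locus or family. Mir30d and Mir30e stay between 0.801 and 1.14 of their means, Mir30b reaches 2.10 in library 3, and Mir204 and Mir211 reach 2.39 and 3.70 in library 1.

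Mir204 exceeded Mir211 in 4 of 4 libraries, but the size of the difference was not fixed by these data. The log2 ratio of TPM + 1 was 2.51 ± 0.995 (SD, n = 4; exact permutation p = 0.125, adjusted p = 0.188). It was 4.03 with a pseudocount of 0.1 TPM, 0.93 with 10 TPM, 4.74 with the miRNA genes of each library rescaled to 1000000 and 3.57 from recovered reads. Without a pseudocount, Mir204 was 5.19-fold above Mir211 in library 1, with a 95% exact interval from counting of 4.34 to 6.25. In library 3 it was 28.5-fold above (15.6 to 58.0), and in library 2 the ratio was 67.5 with an interval of 22.6 to 332. In library 4, with 10 reads of Mir204 and none of Mir211, the interval from counting had a lower end of 3.49, and the ratio was 5.20 with Mir211 set to 3 reads. Mir211 made up 16.1%, 1.46%, 3.39% and 0% of the summed level of the pair. Library 1 held the highest levels of both genes, and a larger share of Mir211 than libraries 2 and 3. The share in library 4, from 10 reads in all, could not be told apart from that of library 1 at this depth.

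The miR-30 sum exceeded the Mir204 and Mir211 sum by 4.41, 7.16, 6.76 and 6.92 log2 units in libraries 1 to 4. The mean of 6.32 ± 1.28 (SD, n = 4; exact permutation p = 0.125, adjusted p = 0.188) was 6.95 without library 1. In library 1 the stroma and mesenchyme markers took 4.46% of the miRNA total, against 2.02% to 3.62% in the other libraries. Striated muscle markers took 0.805% of it in library 1, 1.37% in library 4 and 0.198% in each of libraries 2 and 3. Of these 6 markers 2 were detected, 5 were above 0 and Mir1a-2 was at 0. Neural markers took 0.825% in library 1, below library 3. No list of pigment cell markers was used, and the part of other cells in the library 1 values of Mir204 and Mir211 was not tested. In bulk libraries such as these, fewer cells of a type and less RNA per cell cannot be told apart.

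The spread between libraries differed among the genes. Over the 4 shares of the miRNA total, the coefficient of variation was 14.6% for Mir30e and 15.2% for Mir30d, where the median over 213 detected miRNA genes was 38.3%. Of those 213 genes, 5.16% varied no more than Mir30e and 7.04% no more than Mir30d. The coefficient was 29.6% for Mir30c-2, 35.1% for Mir30c-1, 49.0% for Mir30a, 73.4% for Mir30b and 95.8% for Mir204. These percentages place the genes among others in the same libraries and are not tests. Mir30d and Mir30e, the steadiest, lie at different loci, and each varied less than the other gene of its pair.

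Genes with the most similar pattern over libraries were sought among 163 other miRNA genes with a mean of at least 10 TPM. Likeness was the root mean square difference over 4 libraries of log2(TPM + 1) centred on each gene's mean. Nearest to the miR-30 sum were Mir148b at 0.088, Mir872 at 0.099, Mir25 at 0.12, Mir151 at 0.17 and Mir130a at 0.17, where the median over the 163 genes was 0.62. Nearest to Mir204 were Mir146 at 0.29, Mir140 at 0.38, Mir199b at 0.40, Mir501 at 0.49 and Mir181a-1 at 0.49, with a median of 1.03. Mir146 was likewise highest in library 1, at 22.1, 8.68, 9.63 and 1.57 TPM in libraries 1 to 4. With the miRNA genes of each library rescaled to 1000000, an alternative added after the data were seen, 4 of the 5 nearest genes were the same for the miR-30 sum and 4 of 5 for Mir204. Differences shared by all genes, such as the low TPM of library 4, enter the first measure.

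Other miRNAs linked to the kidney were taken from a list of 37 genes, of which 33 had a row. Of the 33 matched genes, 22 were detected, 6 were above 0 without being detected and 5 were listed at 0. Of the 33, 7 lay above Mir30d by mean TPM, the highest being Mir10b at 6974 ± 5258, Mir10a at 3929 ± 2589, Mir26a-2 at 1575 ± 925 and Mir335 at 803 ± 463 TPM (SD, n = 4). The genes below detection were Mir451a, Mir155, Mir194-2, Mir26a-1, Mir215 and Mir141, and those at 0 were Mir92-1, Mir21a, Mir24-1, Mir199a-2 and Mir214. For some of these another copy was high, with Mir26a-2 at 1575, Mir92-2 at 1080 and Mir199a-1 at 764 TPM. A low or 0 value of a row therefore does not show that the mature miRNA was absent. How reads were assigned to the rows listed at 0 was not tested. The kidney epithelium miRNA Mir192 reached 19.3 ± 10.1 TPM, and Mir194-1 reached 2.65 ± 1.75 TPM (SD, n = 4). The median of the 33 matched genes was 19.3 TPM, with 5 of the miR-30 genes above it, and with Mir30b, Mir204 and Mir211 below it.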

How the data were processed

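Values are TPM deposited by the authors, 1 column per library and 1 row per Entrez gene. Per the submitters' processing notes the build was mm10 (GRCm38), and limma is named without a version. The aligner, counter and annotation were not given in the sources used here. Per the labels' protocols, sorted cells were lysed in QIAzol, RNA was taken with the miRNeasy Micro kit, and NEBNext small RNA libraries were read as 75 bp single reads. Rows were joined by gene ID to RefSeq GRCm38.p6 (2541 of 2976 matched). Multiplied by gene length, 100% of nonzero miRNA values came out as whole numbers of a per-library step within 0.01 of 1 step, and these are the recovered reads. They served for depth, counting intervals and alternatives; no count model was fitted. Log2 ratios within a library, with a pseudocount of 1 TPM, were tested over libraries by sign flips (exact permutation test, two-sided). The recovery of reads was checked on simulated reads. The sign-flip code was checked only on sets of equal or balanced values, for which the outcome is fixed in advance. The genes, lists and rules were chosen with earlier results of these data known. Named were the 8 genes, their neighbours by mean TPM, the 5 genes of most similar pattern and members of the kidney list. TPM divides by hairpin length, so a short hairpin ranks above a long hairpin with equal reads, and ligation preferences make levels of different miRNAs relative. Alternatives covered the pseudocount, scaling, hairpin length, low values, the miR-30c copies and each library left out. Tools were pandas 2.3.3, scipy 1.17.1, numpy 2.4.6 and matplotlib 3.10.9 under Python 3.11.15.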

Additional observations from a re-analysis of the deposited data

Results flagged for a closer look

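In 5 of 44 values or ratios checked, 1 library lay farther from the others than Dixon's 95% critical value for 4 samples, 0.829, allows. Chance gives such a gap in about 1 of 20 groups, and the 44 values overlap each other. Mir30b was high in library 3, at 0.0497% of the miRNA total and at 1.66% of the miR-30 sum. Mir211 was high in library 1, at 5.79 TPM and at 0.0136% of the miRNA total. The log2 ratio of the miR-30 sum over the Mir204 and Mir211 sum was low in library 1, at 4.41.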

How the results depend on the processing

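Of 87 alternative values of the 9 ratios, 83 kept the direction and 6 ratios kept it under every alternative run. The Mir30b/Mir30d over Mir30a/Mir30c-2 ratio ranged from -0.050 to 0.24 with each library left out, being below 0 without library 1. Mir30a over Mir30c-2 ranged from -0.018 to 0.17, below 0 without library 3, and was -0.15 from recovered reads. Mir30e over Mir30c-1 was -0.18 with the miR-30c copies split evenly. By recovered reads the Mir30c-1/Mir30e locus supplied 23.9% of the miR-30 family. As a share of all genes in the table in place of miRNA genes, Mir30d was at 0.715% and Mir30e at 0.218%. No ratio could pass 0.05 in 4 libraries, or in 3, where the smallest p is 0.25, so these p-values say nothing about stability. Leaving out genes with a mean under 1 TPM removed none, so those runs, which are counted among the 87, could not change a direction. Rescaling the miRNA genes of a library, also counted, acts on a ratio only through the pseudocount. Depth limits Mir204 in library 4, with 10 reads, and Mir211 in libraries 2 to 4. No paired comparison of groups was possible because there is only 1 group.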
